A study of Mus musculus with 24 samples.

Results

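The genes described here are 39 germ cell genes of the mouse, a list of meiotic, piRNA pathway and germ cell regulators whose promoters are commonly methylated in body tissues. A CpG was counted as promoter CpG when it lay within 1 kb of any annotated transcript start of the gene (GENCODE M21, build GRCm38), and as gene body CpG when it lay elsewhere between the gene's start and end. Of the 694379 CpGs of the table, each strand being a separate entry, 296 lay in promoters of 25 of the 39 genes and 231 in gene bodies of 22 of them. 15 genes had both kinds, and 7 genes had neither (Sohlh1, Stk31, Figla, Nanos2, Ddx4, Dmc1 and Dnd1). In the whole table, 26757 genes had a CpG in a promoter or gene body.

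DNA methylation was measured by reduced representation bisulfite sequencing (RRBS), which reads CpG-rich fragments cut at CCGG sites, in microdissected dentate gyrus, the hippocampal region in which new neurons form in adults. All 24 mice were female C57BL/6JRj mice and fell into 3 groups of 8. Young STD mice were 3 months old and lived in standard housing, aged STD mice were 17 months old and lived in standard housing, and aged ENR mice were 17 months old and had lived in environmental enrichment (ENR), a large cage with toys and company, for their last 3 months. The tissue was a mixture of cell types, so that a level in between can come from a share of the cells or from each of them, which cannot be told apart here.

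Germ cell genes are kept off in body tissues, and many of their promoters gain DNA methylation in the embryo soon after implantation, by the methyltransferase DNMT3B. A Polycomb-like repressor complex that holds MGA, MAX and E2F6 finds many of these promoters before that, through E-box and E2F motifs. Once set, the methylation is copied at each cell division by DNMT1 and its partner UHRF1, and its loss in brain is known to let such genes be transcribed out of place. RRBS gives no transcript level, so silencing itself was not measured here, and the values below are methylation levels only.

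Each value is the percent of reads methylated at 1 CpG of 1 mouse. The read depth behind a value is unknown beyond a minimum of 10 reads, so that no interval for a single value can be given. A mouse had a value at 308751 to 608017 CpGs of the table, and at 128 to 238 of the 296 promoter CpGs of these genes. Because mice differed in which CpGs were read, group means and differences are given for a coverage-adjusted level, in which each CpG's value was first set against the mean of that CpG over the 3 groups. This level can leave the range of 0 to 100%. The lowest, median and highest mouse of a group are given as plain means of the deposited percentages. Methylation at promoters of the granule cell marker Prox1 (young STD mean 1.12%) and the neuronal marker Rbfox3 (2.40%) was low, and all 5 neuron markers with enough CpGs were at or below 20%. Among markers of other cell types, the astrocyte promoters Slc1a2, Slc1a3, Aldoc and Aqp4 were at 2.83%, 18.4%, 26.2% and 39.2%, the oligodendrocyte promoters Mbp and Cnp at 11.3% and 20.9%, the endothelial promoter Cldn5 at 3.78% and the microglial promoter Aif1 at 85.9%.

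One library stood apart. In aged STD replicate 5, CpGs of the whole table with a mean of 80% or more had a value in 33.5% of cases and those at 20% or less in 69.3%, a ratio of 0.483 against 0.907 to 1.304 in the other mice. Its mean at the highly methylated CpGs was 90.8%, below the 92.9% to 94.6% of the other mice. At the highly methylated promoter CpGs of the germ cell genes it was at 94.1%, within the 92.5% to 96.6% of the others, and the corresponding ratio of 0.68 lay within their 0.66 to 1.26. Differences that changed sign without this mouse are given with and without it.

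The sequences that carry the measured CpGs of 5 of these genes, and of a pair without measured CpGs in the window, are shown first (GRCm38.p6, 5′ to 3′ on the strand of the gene), since the same short distance around a start can hold methylated and unmethylated CpGs. Capitals mark CpGs with a value in the table, on either strand. 3 windows come from Dazl, which encodes an RNA-binding protein that drives translation in germ cells: upstream of the first start (chr17:50294180-50294245, minus strand), in the first intron (chr17:50293256-50293371, minus strand) and in the intron after an internal start (chr17:50292735-50292820, minus strand).
Dazl upstream: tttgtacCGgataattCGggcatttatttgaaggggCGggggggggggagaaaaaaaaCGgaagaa
Dazl first intron: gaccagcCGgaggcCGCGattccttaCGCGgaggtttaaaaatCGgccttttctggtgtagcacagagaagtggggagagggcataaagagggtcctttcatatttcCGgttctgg
Dazl after the internal start: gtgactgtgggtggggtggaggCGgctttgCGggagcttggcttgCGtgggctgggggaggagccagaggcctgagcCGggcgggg
The windows before the start of Mael (chr1:166238748-166238997, minus strand), a piRNA pathway gene, and of Slc25a31 (chr3:40708605-40708854, plus strand), the mitochondrial ADP/ATP carrier of the testis, are methylated promoters rich in CpGs. An intron window of Sycp3 (chr10:88459980-88460042, plus strand), a lateral element protein of the synaptonemal complex, is a 3-CpG example of the same.
Mael upstream: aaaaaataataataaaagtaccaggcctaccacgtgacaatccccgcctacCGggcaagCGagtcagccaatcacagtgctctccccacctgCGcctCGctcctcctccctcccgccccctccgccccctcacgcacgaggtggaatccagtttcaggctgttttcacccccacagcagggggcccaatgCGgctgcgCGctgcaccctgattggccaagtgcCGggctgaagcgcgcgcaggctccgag
Slc25a31 upstream: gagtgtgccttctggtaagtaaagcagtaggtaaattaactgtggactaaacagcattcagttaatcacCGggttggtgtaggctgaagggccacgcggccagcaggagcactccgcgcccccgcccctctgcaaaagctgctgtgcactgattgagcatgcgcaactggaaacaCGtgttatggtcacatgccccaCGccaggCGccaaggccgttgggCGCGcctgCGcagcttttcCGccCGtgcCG
Sycp3 intron: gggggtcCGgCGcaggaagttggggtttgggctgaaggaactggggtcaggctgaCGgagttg
Syce2, a central element protein of the synaptonemal complex, shows the opposite, with unmethylated CpGs around an internal start (chr8:84872379-84872464, plus strand). The last pair of windows held no measured CpG: upstream of Ddx4 (chr13:112652476-112652725, minus strand), the germ cell RNA helicase, and between the start of Smc1b (chr15:85131965-85132077, minus strand), a meiotic cohesin with the lowest level of the tested promoters in young STD mice, and its neighbour Ribc2.
Syce2 internal start: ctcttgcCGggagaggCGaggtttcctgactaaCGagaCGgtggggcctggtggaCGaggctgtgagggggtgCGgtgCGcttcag
Ddx4 upstream: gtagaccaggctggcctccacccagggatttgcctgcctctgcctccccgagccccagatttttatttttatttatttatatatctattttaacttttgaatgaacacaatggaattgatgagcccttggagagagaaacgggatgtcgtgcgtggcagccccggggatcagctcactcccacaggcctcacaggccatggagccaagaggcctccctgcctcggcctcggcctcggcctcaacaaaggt
Smc1b upstream: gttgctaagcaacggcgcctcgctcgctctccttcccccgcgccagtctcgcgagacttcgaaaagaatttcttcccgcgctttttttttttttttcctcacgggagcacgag

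RRBS saw a small share of these promoters. The promoter windows of the 39 genes held 3626 CpGs in the reference, of which 269 were measured on at least 1 strand (7.42%). All 296 measured entries lay within 75 bp of a CCGG site, at a median distance of 25 bp. The 14 genes without a measured promoter CpG had 1 to 11 CCGG sites in their windows (median 5), and the 25 genes with one had 4 to 22 (median 11). Ddx4, with 92 CpGs and 10 CCGG sites in its window, was among the 14. Promoters with at least 5 CpGs and at least 3 mice per group were tested, which left 18 of the 39 genes, and 16666 promoters in the whole table. Gene bodies of 17 of the 39 genes passed the same filter, of 10499 in all.

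Most tested promoter windows of germ cell genes, which also take in CpGs inside the gene, were highly methylated in the dentate gyrus. In young STD mice, 13 of 18 (72.2%) were at 50% or more and 10 (55.6%) at 80% or more, with a median of 87.7%. Over all 16666 promoters, 9.86% were at 50% or more and 6.45% at 80% or more, with a median of 2.79%. The other 5 germ cell promoters (27.8%) were at 20% or less, as were 81.4% of all promoters. The medians in aged STD and aged ENR mice were 86.9% and 88.8%. Of the 296 promoter CpGs, 64 lay upstream (median 86.8%), 34 in untranslated regions (90.1%), 69 in coding exons (81.6%) and 125 in introns (89.5%). A further 4 lay in exons of non-coding transcripts (23.9%). These medians are over the mean of each CpG in all mice.

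**Figure D1:**
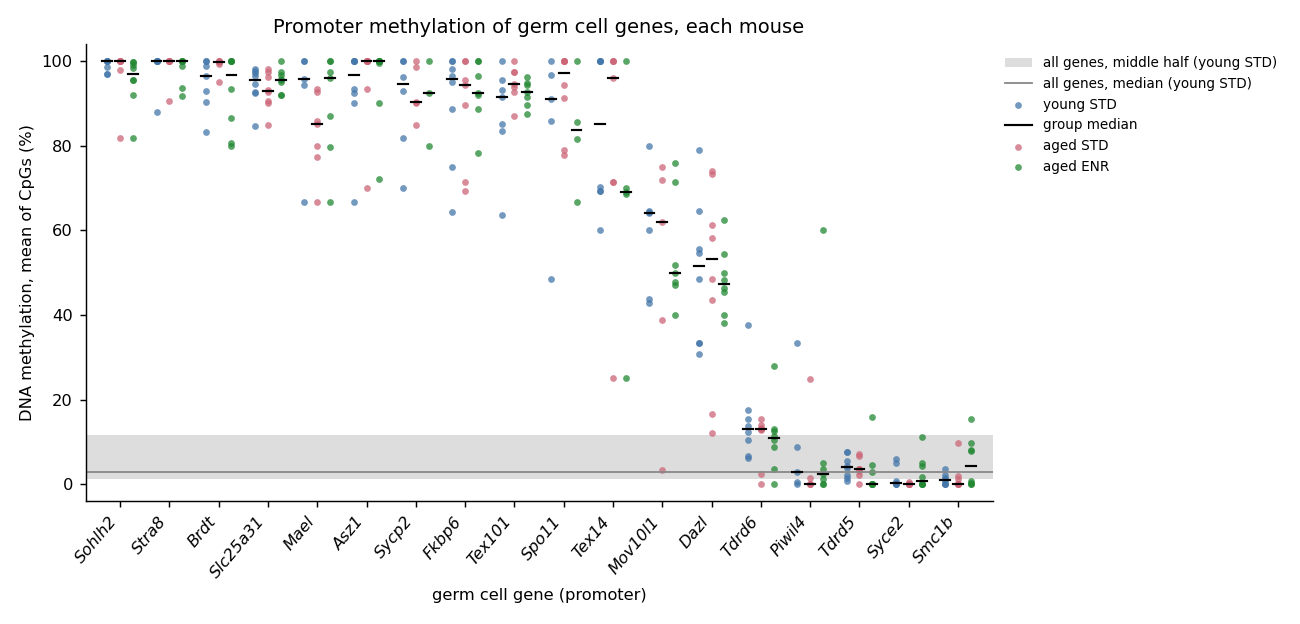
Each point is 1 mouse, and the vertical axis is the plain mean of the percentages of the promoter CpGs read in that mouse, for the 18 germ cell genes with a tested promoter, ordered by the young STD level. Black bars are group medians, and the grey line and band are the median and the middle 50% of all 16666 promoters in young STD mice. 10 genes from Sohlh2 to Spo11 sit near the top in all 3 groups, and 5 genes from Tdrd6 to Smc1b sit near the bottom.

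The share moved with how many mice a CpG had to be read in. With CpGs kept only where at least 5 mice per group had a value, 7 of the 18 promoters remained, and 2 of these 7, Slc25a31 (96.5% in young STD mice) and Fkbp6 (86.9%), were at 50% or more. Under that condition 4.85% of 9324 promoters were at 50% or more. Dazl was at 41.0% there, and Tdrd5, Syce2, Piwil4 and Smc1b were the low promoters again.

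At single CpGs, germ cell promoters were split into fully methylated and unmethylated stretches. Of the 296 CpGs, 172 (58.1%) had a mean of 80% or more over all mice, 102 (34.5%) of 20% or less, and 22 (7.43%) lay between. At all promoter CpGs of the table these shares were 6.33%, 86.9% and 6.78%. Of the 4502 single values at germ cell promoters, 51.1% were exactly 100% and 35.9% exactly 0%. Where both strands of a CpG were read (27 CpGs), 76.7% of 313 values of a mouse differed by at most 10 points between the strands.

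The 3 tested promoters of transcription and meiotic entry genes had the highest levels in young STD mice. Sohlh2, a transcription factor of spermatogonia and oocytes, had 99.1% ± 2.35 (SD, n = 7) in young STD mice on the coverage-adjusted level, 96.9% ± 5.78 (n = 7) in aged STD mice and 94.98% ± 5.81 (n = 8) in aged ENR mice. The plain means of its 19 CpGs ran from 96.9% over 100% (median) to 100% in young STD mice, from 81.8% over 100% to 100% in aged STD mice and from 81.8% over 96.9% to 99.7% in aged ENR mice. The groups overlapped, and 1 mouse in each aged group was lower than the rest, which in aged STD mice was replicate 5. Without that mouse the aged STD mean was 99.04%. Stra8, the retinoic acid-induced gene that licenses entry into meiosis, had 98.2% ± 5.004 (n = 6) in young STD mice, with plain means from 88.0% over 100% to 100%, 98.5% ± 3.88 (n = 6) in aged STD mice, from 90.6% over 100% to 100%, and 97.6% ± 3.49 (n = 7) in aged ENR mice, from 91.7% over 100% to 100%. Brdt, a bromodomain protein of spermatocytes and spermatids, had 95.1% ± 5.83 (n = 7) in young STD mice, with plain means from 83.2% over 96.3% to 100%, 98.8% ± 2.92 (n = 6) in aged STD mice, from 95.1% over 99.86% to 100%, and 93.4% ± 10.1 (n = 8) in aged ENR mice, from 80% over 96.7% to 100%. Nobox, an oocyte homeobox factor, had 1 promoter CpG, at 76.8% over 13 mice, and Sohlh1 and Figla had none.

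Of the 3 spermatocyte and spermatid genes, Slc25a31 had the best covered promoter of the highly methylated ones. Its 29 CpGs averaged 94.6% ± 4.48 (SD, n = 8) in young STD mice, 92.6% ± 4.34 (n = 8) in aged STD mice and 95.3% ± 3.08 (n = 8) in aged ENR mice on the coverage-adjusted level. The plain means ran from 84.6% over 95.4% to 98.1% in young STD mice, from 84.7% over 92.8% to 98.1% in aged STD mice and from 91.9% over 95.6% to 100% in aged ENR mice. All 24 mice had a high level, and 28 of the 29 CpGs had a mean of 80% or more, from before the start through the first exon into the intron. Tex101, a sperm surface protein, had 87.8% ± 11.4 (n = 7) in young STD mice, 94.9% ± 4.44 (n = 7) in aged STD mice and 92.6% ± 3.44 (n = 7) in aged ENR mice, and its lowest young STD mouse had a plain mean of 63.6%.

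Tex14, a protein of the bridges between germ cells, had a mean of 70.9% ± 1.59 (n = 8) in young STD mice, which joined methylated and unmethylated stretches. 3 CpGs 194 to 211 bp after its first start had 99.93% ± 0.314 (SD) over 18 mice, and 2 CpGs further in had 92.1% ± 15.3 over 19 mice. These 5 CpGs also lay within 1 kb of a start of Rad51c, a DNA repair gene used in all tissues. 2 CpGs before an internal start were at 0% in all 13 mice read.

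**Figure D2:**
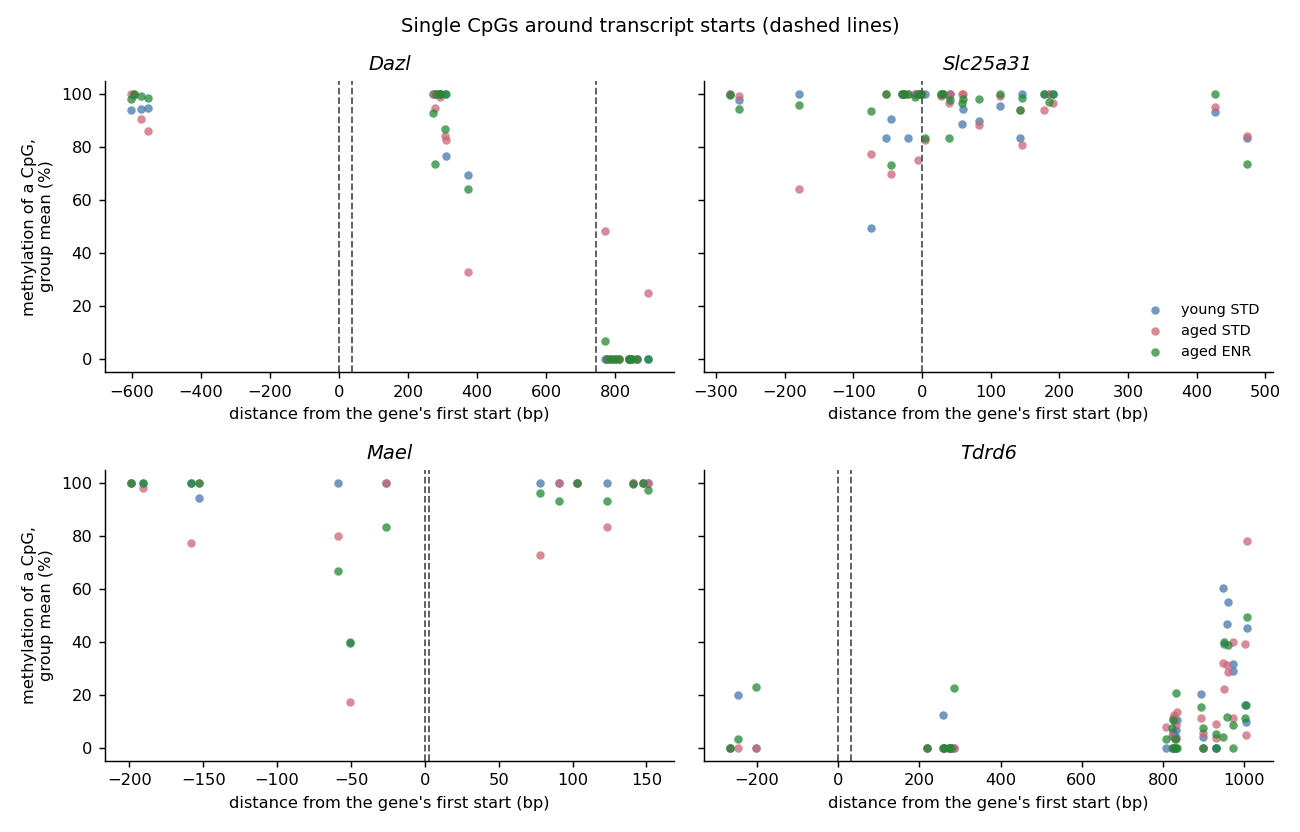
Each point is the group mean of 1 promoter CpG, plotted by its distance from the gene's first transcript start in bp, with dashed lines at annotated starts. In Dazl the CpGs upstream and in the first intron are high and those after the internal start near 0%, in Slc25a31 and Mael nearly all CpGs are high, and in Tdrd6 the higher CpGs lie farthest into the coding exon.

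Among the RNA-binding regulators, only Dazl had a tested promoter, and its mean of 50.3% ± 4.20 (SD, n = 8) in young STD mice was the average of 3 unlike stretches. The 4 CpGs upstream, −602 to −551 bp from the nearest start, had 96.6% ± 4.87 over 22 mice, with the lowest mouse at 85.7%. The 8 CpGs of the first intron had 85.5% ± 17.5 over 20 mice, from 48.5% to 100%. The 10 CpGs 26 to 150 bp after the internal start had 3.01% ± 6.41 over 22 mice. In this last stretch all 7 young STD mice were at 0%, aged STD mice ran from 0% over 5.12% (median) to 25% (n = 7), and aged ENR mice from 0% over 0% to 4.74% (n = 8). The groups overlapped at 0%, and no test was made for stretches. The plain mean of the whole promoter ran from 30.8% over 51.5% to 78.9% in young STD mice, from 12.0% over 53.3% to 74.1% in aged STD mice and from 38.2% over 47.3% to 62.5% in aged ENR mice, since mice differed in which stretch was read. Boll, a relative of Dazl, was at 0% at all 4 of its promoter CpGs in all 9 mice read, and Nanos2, Nanos3, Ddx25 and Dnd1 had no measured promoter CpG.

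Promoters of piRNA pathway and germ granule genes were split, with 4 of 7 at 50% or more in young STD mice. Mael had 93.7% ± 5.58 (SD, n = 5) in young STD mice, 86.6% ± 8.05 (n = 7) in aged STD mice and 90.4% ± 11.7 (n = 7) in aged ENR mice. Its plain means ran from 66.7% over 95.8% to 100% in young STD mice, from 66.7% over 85.2% to 93.3% in aged STD mice and from 66.7% over 95.9% to 100% in aged ENR mice. The 3 groups shared the lowest value and overlapped throughout. 12 of its 14 CpGs had a mean of 80% or more, while the CpG 51 bp before the start was at 31.7% over 14 mice. Asz1, a germ granule protein, had 92.2% ± 12.4 (n = 8) and Fkbp6, a co-chaperone of piRNA loading, 90.0% ± 9.93 (n = 8) in young STD mice. Mov10l1, the helicase that feeds piRNA precursors, had 59.9% ± 14.1 (n = 7), which joined an intron stretch of 7 CpGs at 39.7% ± 28.2 over 20 mice with 2 exon CpGs at 92.4% ± 15.5 over 17 mice.

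The remaining 3 tested piRNA pathway promoters were low in young STD mice. Tdrd6, a Tudor protein of germ granules, had 13.7% ± 6.87 (n = 8), with 14.9% in 23 CpGs deep in its coding exon and 1.79% and 4.96% in the stretches closer to and before the start, over all mice. Piwil4, a PIWI protein of fetal germ cells, had 10.3% ± 13.6 (n = 5), with replicate 8 at 33.3% and the other 4 mice at 0.51% to 12.3%. Tdrd5, another Tudor protein, had 4.34% ± 2.71 (n = 8). In aged STD and aged ENR mice Tdrd5 was at 3.92% ± 2.38 (n = 8) and 2.91% ± 5.29 (n = 8). Its plain means ran from 0.769% over 4.12% to 7.63% in young STD mice, from 0% over 3.68% to 7.03% in aged STD mice and from 0% over 0% to 15.9% in aged ENR mice, where 1 mouse was above all others. All 35 Tdrd5 CpGs also lay within 1 kb of a start of the neighbouring 4930518J20Rik. In this group, promoters with fewer than 5 CpGs were high: 4 CpGs of Tdrd9 had 95.1% ± 9.88 over 12 mice, and 4 CpGs of Piwil2, shared with Gm24890, had 90.2% ± 12.4 over 20 mice. Tdrd1, Piwil1, Gtsf1, Stk31 and Ddx4 had no measured promoter CpG.

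Meiotic chromosome genes were split as well, with 2 of 4 tested promoters at 50% or more. Sycp2, an axis protein, had 90.1% ± 12.0 (n = 6) in young STD mice, with plain means from 70.0% over 94.6% to 100%. Spo11, which makes the DNA breaks of meiosis, had 87.6% ± 8.997 (n = 5), of which 9 CpGs at a downstream start had 97.6% ± 4.46 over 20 mice and 2 CpGs near the first start 49.3% ± 37.2 over 18 mice. Syce2 was at 1.42% ± 2.81 (n = 7) and Smc1b at 1.26% ± 1.34 (n = 8) in young STD mice, at 0.12% ± 0.61 (n = 7) and 1.94% ± 3.53 (n = 7) in aged STD mice and at 2.62% ± 3.84 (n = 8) and 5.41% ± 5.93 (n = 8) in aged ENR mice. The plain means of Syce2 ran from 0% over 0.413% to 5.91% in young STD mice, from 0% over 0% to 0.571% in aged STD mice and from 0% over 0.802% to 11.3% in aged ENR mice. The plain means of Smc1b ran from 0% over 1.03% to 3.62% in young STD mice, from 0% over 0.128% to 9.75% in aged STD mice and from 0% over 4.33% to 15.5% in aged ENR mice. All 9 Smc1b CpGs lay within 1 kb of a start of Ribc2, a gene of motile cilia.

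Sycp1 and Sycp3, synaptonemal complex proteins often shown as examples of methylated germ cell genes, had too few promoter CpGs for the test. The 3 Sycp3 CpGs of the printed intron window had 94.8% ± 10.3 over 15 mice. Their plain means ran from 66.7% over 100% to 100% in 4 young STD mice, were 83.3%, 100% and 100% in 3 aged STD mice, and ran from 77.8% over 100% to 100% in 8 aged ENR mice. For Sycp1, 2 CpGs after the start had 93.7% ± 14.3 over 15 mice and 2 upstream CpGs 83.1% ± 25.4 over 23 mice, and 1 aged ENR mouse was at 0% at the latter. Hormad1, an axis protein, had 92.7% ± 11.3 over 16 mice at 3 CpGs.

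Over all 25 genes, CpGs parted by gaps over 300 bp made 34 stretches in 24 genes. 21 of these were at 80% or more, 11 at 20% or less and 2 in between. Dazl and Tex14 had stretches on both sides.

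Germ cell promoters were methylated at CpG densities at which most promoters were not. The CpG ratio (CpGs observed over those expected from base composition, within 1 kb of the starts) lay between 0.4 and 0.6 for 9 of the 18 genes. In that class 7 of 9 (77.8%) were at 50% or more in young STD mice, against 4.28% of 6499 promoters in all. Under 0.4 the counts were 5 of 7 (71.4%) against 21.96% of 5998. At 0.6 or more lay Mael, methylated, and Syce2, unmethylated, and 1.18% of 4148 promoters in that class were at 50% or more. Slc25a31 was just under the limit, at 0.594. These are descriptions of a chosen list, and no test was made.

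**Figure D3:**
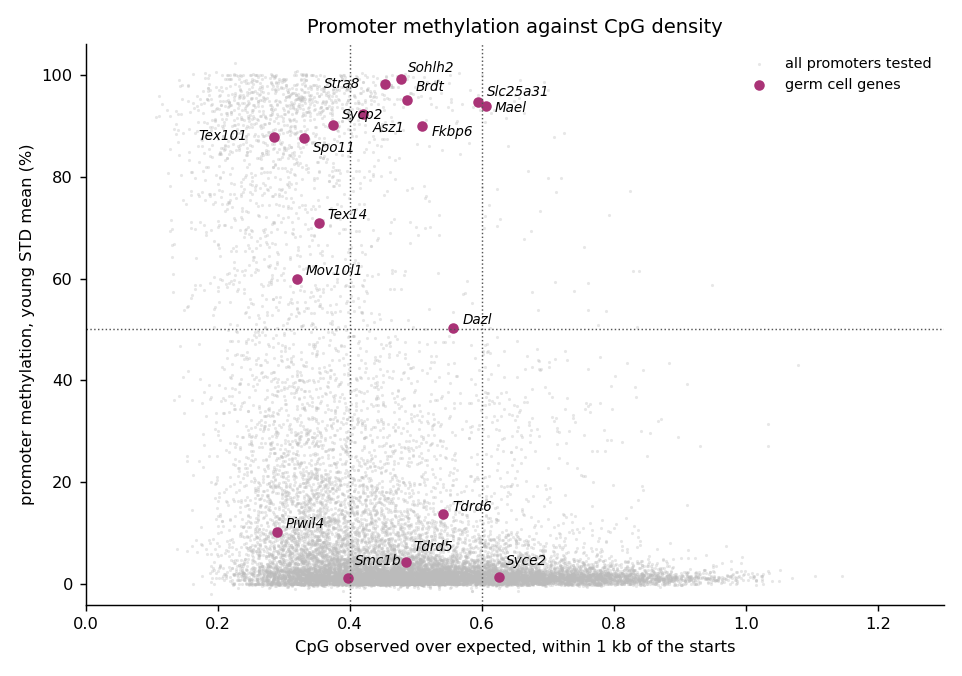
The horizontal axis is the CpG observed over expected ratio of the promoter windows and the vertical axis the coverage-adjusted young STD level in percent, with all tested promoters in grey and the 18 germ cell genes labelled. Dotted lines mark ratios of 0.4 and 0.6 and a level of 50%. Most grey points of ratio over 0.4 lie near 0%, while Sohlh2, Stra8, Brdt, Slc25a31, Mael, Asz1 and Fkbp6 lie near the top.

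Both repressor motifs were searched in RefSeq promoter windows (250 bases before to 50 after the start, GRCm38.p6) of 35 of the 39 genes. The E-box CACGTG, which reads the same on both strands, was in 17 of 35 (48.6%), against 8.09% of 27025 genes. The E2F-type motif TCCCGC, or GCGGGA on the other strand, was in 14 of 35 (40.0%), against 22.05%. Both were in 8 (22.9%), namely Ddx25, Ddx4, Hormad1, Mael, Slc25a31, Syce2, Sycp1 and Sycp3, against 2.32% of all genes. The letters of the motifs can share no more than their end base, and a match is not a bound site. Of the genes with both, Mael, Slc25a31, Hormad1, Sycp1 and Sycp3 were high at their measured promoter CpGs and Syce2 was low. Ddx25 and Ddx4 had no measured promoter CpG, and no Syce2 CpG was read inside either motif.

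The same letters were then searched at every measured CpG of the full promoter windows (1 kb around each start, wider than the RefSeq windows). RRBS read the CpG inside 1 E-box there, that of Slc25a31 at position 40708781 of chromosome 3, written caCGtg in the printed window. It was at 71.7% over 15 mice, from 0% to 100%, the lowest of the 29 Slc25a31 CpGs. Its group means were 49.4%, 77.5% and 93.8% in the young STD group, the aged STD group and the aged ENR group. In the full windows 10 measured entries lay in an E2F-type motif. 5 were at 80% or more: the 2 strands of 1 CpG in Slc25a31 and 1 entry each in Tex14, Fkbp6 and Tex101. The other 5 were at 20% or less: 3 in Tdrd6, of which 2 were the strands of 1 CpG, and 1 each in Dazl and Tdrd5.

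Germ cell gene bodies were mostly methylated, as were gene bodies in general. In young STD mice 16 of 17 (94.1%) were at 50% or more and 13 (76.5%) at 80% or more, with a median of 87.3%, against 67.9%, 37.8% and 69.6% over 10499 gene bodies. At single CpGs, 167 of 231 (72.3%) had a mean of 80% or more, against 42.5% of all gene body CpGs. Low promoters could lie before high gene bodies: Tdrd5 had 87.1% ± 9.36 (SD, n = 8) and Tdrd6 90.3% ± 3.84 (n = 8) in their bodies in young STD mice, and Boll had 89.6% ± 7.67 (n = 8). The exception was Nanos3, an RNA-binding protein that primordial germ cells need, at 18.4% ± 7.91 (n = 6) on the coverage-adjusted level, while its plain means ran from 0% over 3.11% to 26.02% (mean 8.15%). Its difference for age, −2.86 points, ran from −5.86 to 10.9 points over the alternative settings. Bodies of Tex14 (62.6% ± 3.54, n = 8), Ddx25 (66.8% ± 11.9, n = 8) and Piwil2 (66.7% ± 19.4, n = 4) lay in between.

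**Figure D4:**
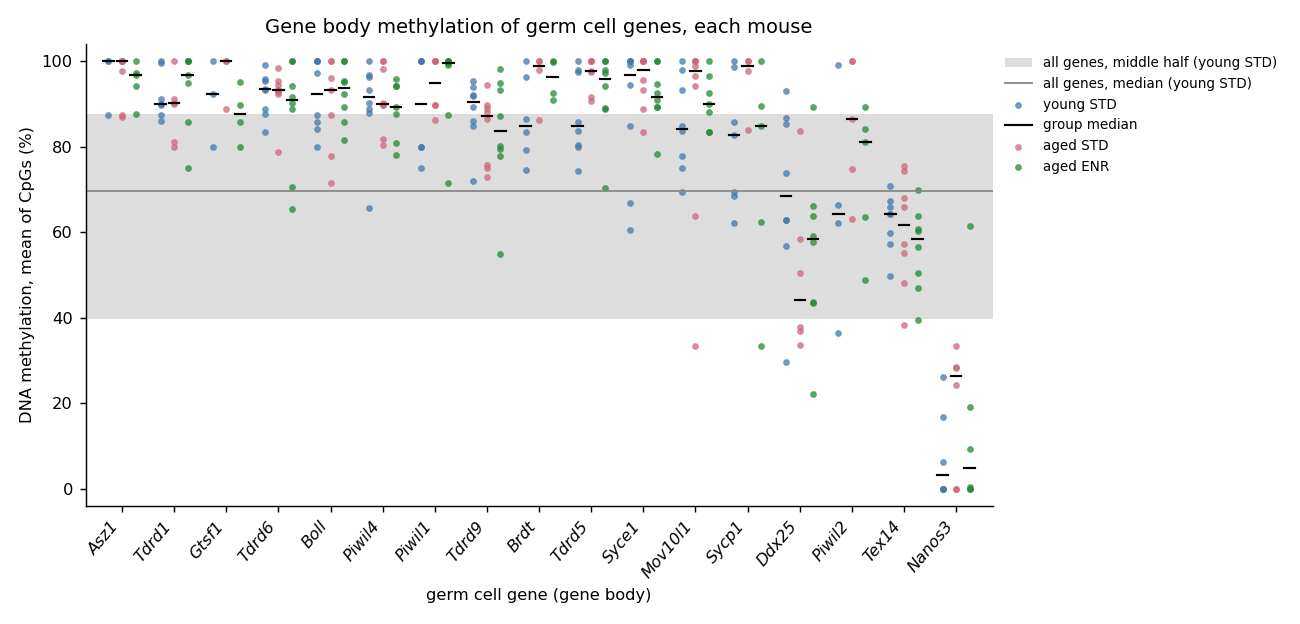
Each point is 1 mouse and the vertical axis is the plain mean of the percentages of the gene body CpGs read, for 17 germ cell genes ordered by the young STD level, with group medians as black bars. The grey line and band are the median and the middle 50% of all 10499 gene bodies. 13 genes from Asz1 to Sycp1 lie mostly over 80%, and Nanos3 is the low one.

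Whether age changes these levels was asked by setting aged STD against young STD mice. No germ cell promoter passed the test (limma, adjusted p under 0.05), beside a background of 0.006% of 16666 promoters called. At an unadjusted p under 0.05 there were 0 of 18 promoters, against 5.37% of all, and the exact permutation test gave 0. The differences ran from −10.6 to 7.10 points, 8 higher and 10 lower in aged mice, with a median of −0.86 against 0 over all promoters. Their standard errors ran from 1.5 to 11.3 points with a median of 3.65. In none of the 18 did the groups part without overlap, which held for 0.216% of all promoters.

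The 3 smallest p-values for age at promoters belonged to Tex101, Mael and Slc25a31. Tex101 was higher in aged STD mice by 7.10 points (95% confidence interval −0.84 to 15.0, limma adjusted p = 0.875), and by 3.29 points without its lowest young STD mouse, replicate 7. Mael differed by −7.10 points (−17.9 to 3.75, adjusted p = 0.875 with limma), and by −4.50 without aged STD replicate 3. Slc25a31 differed by −2.06 points (−6.14 to 2.02, adjusted p = 0.887 with limma), by −0.99 without aged STD replicate 2 and by −3.39 without young STD replicate 7. Dazl differed by 1.46 points (−4.56 to 7.47), or −0.43 (without aged STD replicate 8) to 3.60 (without aged STD replicate 3) with 1 mouse left out, and 0.87 without replicate 5. The difference of Mov10l1, −10.6 points (−34.5 to 13.3), rested on aged STD replicate 5, which was at 2.18% on the coverage-adjusted level. The aged STD mean was 49.3% with it and 61.1% without it, and the difference without it 1.21 points. The small difference of Spo11 also changed sign without this mouse, from 0.33 to −0.09 points.

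**Figure D5:**
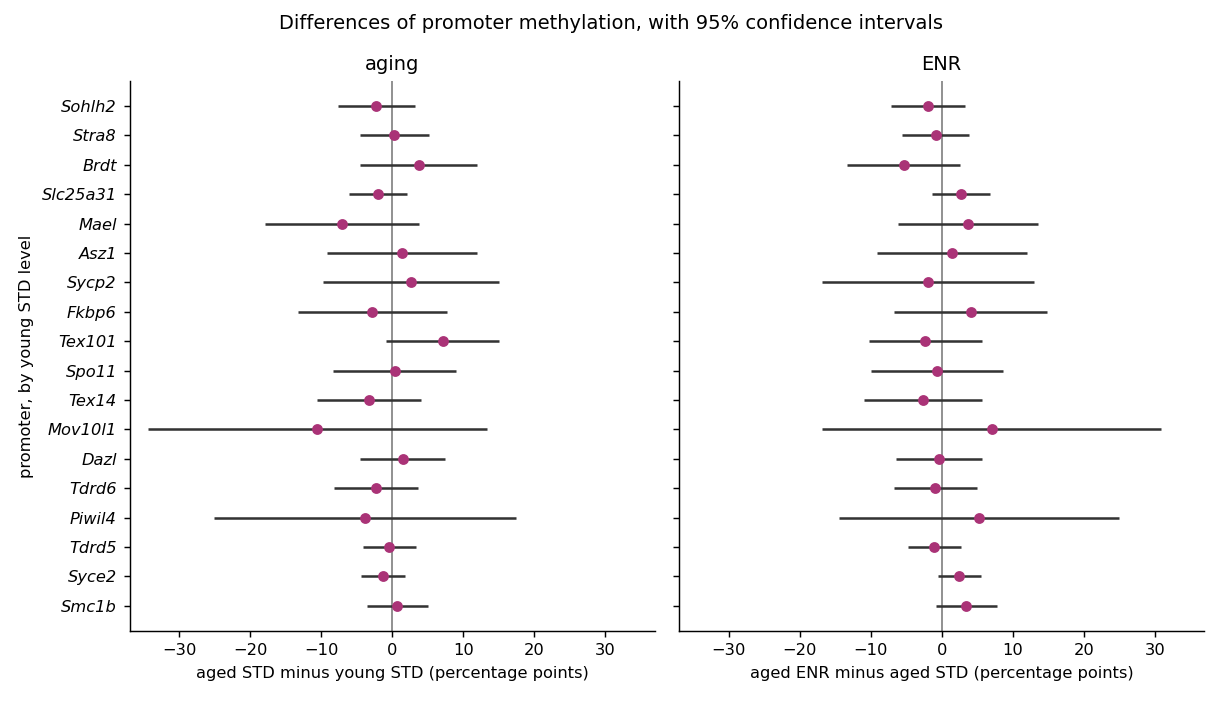
Points are differences of the coverage-adjusted promoter level in percentage points (left, aged STD minus young STD, right, aged ENR minus aged STD) and lines are 95% confidence intervals, for the 18 germ cell promoters ordered by the young STD level. All intervals include 0, and those of Mov10l1 and Piwil4 are the widest.

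Enrichment was compared at the same age, aged ENR minus aged STD. No germ cell promoter was called (limma), beside 0.012% of all promoters, and 0 of 18 had an unadjusted p under 0.05, against 4.79% of all, or an exact permutation p under 0.05. The differences ran from −5.34 to 7.06 points with a median of −0.52, 8 higher and 10 lower in aged ENR mice, against −0.16 over all promoters. The highest of these, 7.06 points at Mov10l1, again rested on aged STD replicate 5 and was −4.73 points without it. Groups without overlap were found at 0 of 18, and at 0.18% of all promoters. Smallest in p were Syce2, at 2.62% in aged ENR and 0.12% in aged STD mice (2.50 points, −0.53 to 5.53, limma adjusted p = 0.931), Smc1b (3.47 points, −0.83 to 7.77) and Brdt (−5.34 points, −13.3 to 2.63). Each moved with single aged ENR mice: without replicate 1 Syce2 differed by 1.34 and Smc1b by 2.03 points, and Brdt differed by −3.28 points without replicate 3 and by −3.36 without replicate 7. Slc25a31 differed by 2.69 points (−1.39 to 6.77), Mael by 3.71 (−6.19 to 13.6) and Dazl by −0.37 (−6.39 to 5.65). With 1 mouse left out these ran from 1.62 to 3.44 for Slc25a31 (lowest without aged STD replicate 2), from 1.10 to 7.07 for Mael (without aged STD replicate 3 and aged ENR replicate 3) and from −2.51 to 1.52 for Dazl (without aged STD replicates 3 and 8, and 0.22 without replicate 5).

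Aged ENR mice were also set against young STD mice, which shares its mice with both comparisons above. Again no germ cell promoter was called (limma), beside 0.012% of all promoters. The differences ran from −5.96 to 4.82 points with a median of 0.15. At an unadjusted p under 0.05 there were 0 of 18 promoters against 4.83% of all, while the exact permutation test gave 1, Tex14, at 65.0% against 70.9% (−5.96 points, −14.0 to 2.13, exact permutation p = 0.0218, limma adjusted p = 0.927). 1 of the 5 aged ENR mice, replicate 1, was at 48.1% and the other 4 at 68.6% to 70.0% on the coverage-adjusted level, and without it the difference was −1.75 points. In plain means Tex14 was at 66.5% in aged ENR and 83.6% in young STD mice. Over the alternative settings its difference ran from −17.1 to −0.21 points. No promoter was without overlap between the groups, against 0.198% of all.

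In gene bodies 0 of 17 genes were called in each comparison (limma), as were 0% of all 10499. For age, 2 of 17 had an unadjusted p under 0.05, against 6.04% of all, and 1 by the exact permutation test. Tdrd5 was at 96.8% ± 3.94 (n = 7) in aged STD mice and at 87.1% ± 9.36 (n = 8) in young STD mice, 9.68 points higher (0.84 to 18.5, limma adjusted p = 0.806, exact permutation p = 0.0252). Its plain means ran from 74.4% over 84.8% to 100% in young STD mice, from 90.7% over 97.7% to 100% in aged STD mice and from 70.3% over 95.7% to 100% in aged ENR mice, so that the groups overlapped. Ddx25, an RNA helicase of spermatids, was at 54.7% ± 11.3 (n = 6) against 66.8% ± 11.9 (n = 8), a difference of −12.1 points (−23.6 to −0.57, limma adjusted p = 0.809). Its plain means ran from 29.6% over 68.4% to 93.1% in young STD and from 33.6% over 44.1% to 83.7% in aged STD mice. Without aged STD replicate 7 the difference was −7.89 points. Syce1, a central element protein of the synaptonemal complex and the third by p, was at 86.4% ± 14.7 (n = 8) in the young STD group, 94.5% ± 7.59 (n = 8) in the aged STD group and 90.7% ± 6.79 (n = 8) in the aged ENR group. In plain means it ran from 60.5% over 96.7% to 100%, from 83.3% over 97.8% to 100% and from 78.3% over 91.7% to 100% in these groups, which overlapped. The difference for age was 8.14 points (−2.24 to 18.5, limma adjusted p = 0.86), and 5.35 and 4.44 points without young STD replicates 3 and 7, the lowest mice. For age no gene body had an adjusted p (limma) under 0.806.

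For enrichment 0 of 17 gene bodies had an unadjusted p under 0.05, against 4.95% of all, and the exact permutation test gave 0. Without aged STD replicate 5 the count by limma was 1, Tex14. Sycp1 was at 81.2% ± 15.0 (n = 7) in young STD mice, 74.3% ± 26.5 (n = 5) in aged ENR and 94.95% ± 7.21 (n = 4) in aged STD mice (−20.7 points, −45.0 to 3.63, limma adjusted p = 0.962). Its plain means ran from 33.3% over 84.8% to 100% in aged ENR and from 83.9% over 98.8% to 100% in aged STD mice, and without aged ENR replicate 3, the lowest mouse, the difference was −10.6 points. Gtsf1, a partner of PIWI proteins, was at 90.8% ± 10.1 (n = 3) in the young STD group, 96.2% ± 6.53 (n = 3) in the aged STD group and 87.5% ± 6.45 (n = 4) in the aged ENR group. Plain means of Gtsf1 ran from 80% over 92.4% to 100%, from 88.7% over 100% to 100% and from 80% over 87.7% to 95.1%, and the difference for enrichment was −8.74 points (−21.6 to 4.07, limma adjusted p = 0.962). Few mice were read and the groups overlapped. Tdrd5, at 91.6% ± 10.04 (n = 8) in aged ENR mice, followed with −5.23 points (−14.1 to 3.61), and −2.04 without aged ENR replicate 3. Aged ENR against young STD mice gave 0 of 17 by limma and by the exact permutation test, against 6.54% of all at an unadjusted p under 0.05. Tdrd1, the Tudor protein with 14 gene body CpGs, was at 90.9%, 88.9% and 92.5% in the young STD group, the aged STD group and the aged ENR group, with plain means from 86.1% over 90.0% to 100%, from 80% over 90.1% to 100% and from 75% over 96.7% to 100%. Groups without overlap were found at 0 of 17 gene bodies in each comparison, against 0.343% (age), 0.381% (enrichment) and 0.381% (aged ENR against young STD) of all. In 2 gene bodies aged STD replicate 5 was far below the other mice: Tex14 at 30.2% (mean of the others 61.4%) and Mov10l1 at 41.7% (88.9%), on the coverage-adjusted level. The aged STD mean of Tex14 was 60.2% with it and 64.5% without it, the difference for age −2.45 and 1.83 points, and that for enrichment −2.79 and −7.07 points (without it an unadjusted p of 0.0213 and an adjusted p = 0.819 by limma). For Mov10l1 the means were 85.2% and 91.4%, the differences for age −0.32 and 5.90 points and those for enrichment 4.93 and −1.28 points. The difference of the Asz1 gene body for age was 0.20 points with this mouse and −0.46 without it.

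Single CpGs of germ cell genes gave no call either. The call needed an adjusted p under 0.05 (limma, over all CpGs) and a difference over 25 points, and it was met by 0 of 527 CpGs for age, enrichment and aged ENR against young STD, beside 0.00475%, 0.00432% and 0.00504% of all CpGs. The smallest adjusted p was 1 in each, and at an unadjusted p under 0.05 there were 7, 5 and 3 of 296 promoter CpGs (2.36%, 1.69% and 1.01%) and 4, 3 and 5 of 231 gene body CpGs, against 2.23%, 1.9% and 2.18% of all CpGs. Size alone, over 25 points, was met by 18, 18 and 16 promoter CpGs (6.08%, 6.08% and 5.41%), against 4.47%, 3.92% and 3.87% of all promoter CpGs. Among the 170 promoter CpGs at 80% or more in the mean of the 3 group means, the counts were 8 (4.71%), 9 (5.29%) and 7 (4.12%), against 7.32%, 7.32% and 6.69% of such CpGs in all promoters. In gene bodies 34 (14.7%), 30 (13.0%) and 31 (13.4%) of 231 CpGs were over 25 points, against 13.4%, 12.5% and 12.7% of all gene body CpGs. Those at 80% or more numbered 170 as well, of which 17 (10%), 13 (7.65%) and 13 (7.65%) were over 25 points, against 6.98%, 6.74% and 6.4%. Over all CpGs, 9.16%, 8.33% and 8.43% differed by that much. The E-box CpG of Slc25a31 was one of these by size, with 28.1 points more in aged STD (n = 4) and 44.3 points more in aged ENR mice (n = 5) than in young STD mice (n = 6), and limma gave unadjusted p-values of 0.318 and 0.104 and adjusted p-values of 1 for both.

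The spread between mice of 1 group was set beside that of all genes of the same level. Highly methylated germ cell promoters had a median within-group SD of 7.37 points over 10 genes, against 8.10 points over 1091 promoters. The 3 promoters between 20% and 80% had 6.98 against 13.8 points, the 5 low ones 4.08 against 2.76 points, and the 13 highly methylated gene bodies 8.66 against 8.34 points.

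Genes of the repressor machinery and further germ cell genes were looked at as lists of their own. Of 21 repressor genes, among them Dnmt3b, Uhrf1, Mga, Max and E2f6, 20 had a tested promoter, and all 20 were at 20% or less in young STD mice (median 2.36%), with 0 called in each comparison (limma). Of 35 further germ cell genes, 18 had a tested promoter, with a median of 28.4%, 7 at 50% or more and 1 at 80% or more, and 0 called in each comparison.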

How the data were processed

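RRBS libraries of the dentate gyrus of 24 mice were analysed from 1 table, in which the authors deposited the percent methylation of each CpG, strand and mouse. Per the labels and the paper's methods, the reads were trimmed, aligned to mm10 with bisulfite-aware software and counted per cytosine. CpGs with at least 10 reads and coverage up to the 99.9th percentile were kept, and only CpGs read in 3 or more mice per group entered the table. The submitters' processing notes name Trim Galore 0.4.0, cutadapt 1.8.1, Bismark 0.16.1 and methylKit 1.5.2, while the paper's methods name other versions of the trimmer and the aligner. Read counts were not used here, so depth is unknown, and the authors' test on counts could not be applied. A value just above the read minimum rests on few reads. The unit, percent, was used as deposited.

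The coverage-adjusted level of a gene and mouse was the mean, over the CpGs read, of the value minus the mean of that CpG's 3 group means, plus the mean over the gene's CpGs. It needed at least 5 CpGs in a gene, 3 with a value in a mouse and 3 such mice in each group. Levels and single CpGs of all genes were tested with limma 3.58.1 (R 4.3.3), a group-means model of all 24 mice with moderated variances and Benjamini-Hochberg adjustment over all genes or CpGs tested. Calls needed an adjusted p under 0.05, and for CpGs also a difference over 25 points. Exact permutation tests of single genes were two-sided. Of 200 promoters simulated with a difference of 20 points, 167 were recovered with 7 false calls, of 200 gene bodies 112 with 4, and of 2000 CpGs simulated with 50 points 1200 with 166. The simulated promoters were drawn from all tested promoters, most of which were at 20% or less. Promoters at that level had a median within-group SD of 2.76 points, against 7.37 points for the highly methylated germ cell promoters. The recovery therefore does not describe the power at the germ cell genes. Of the CpGs on placed chromosomes, 694266 of 694279 were a CG in GRCm38.p6 at the given place and strand, the build of mm10, so that coordinates, GENCODE M21 starts and RefSeq sequences share 1 build. Nothing in the labels says how the mice were spread over batches. The 39 genes and the gene lists were chosen with earlier results of these data known. Every member with at least 5 promoter CpGs was named, with full values for Dazl, Ddx4, Sycp1, Sycp3, Mael, Tdrd1 and Slc25a31, for the 3 smallest p-values per comparison of age or enrichment, and for the 3 highest and 3 lowest promoters. The Syce2 sequence and stretches within genes were added to these after their values were seen. Alternatives were the promoter window, protein-coding starts only, CpGs near no other gene, CpG and mouse minimums, averaged strands, plain means, a logit scale, a replicate block and leaving out each mouse.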

Additional observations from a re-analysis of the deposited data

Results flagged for a closer look

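Among the tested germ cell promoters and gene bodies, 53 promoter groups and 48 gene body groups of 4 to 8 mice were searched for a mouse set apart from the rest of its group, by Dixon's criterion on the coverage-adjusted level. 21 groups (20.8%) held one. Chance gives about 1 in 20 for normally distributed values, a rate that may not hold for levels close to 0% or 100% that rest on different CpGs in each mouse. 16 of these mice were low and 5 high.

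Low mice in highly methylated promoters were young STD replicate 2 (62.8%), aged STD replicate 7 (71.8%) and aged ENR replicate 4 (73.8%) at Asz1, young STD replicate 2 (88.0%) and aged STD replicate 4 (90.6%) at Stra8, and young STD replicate 7 (85.3%) at Slc25a31. At Sohlh2 they were aged STD replicate 5 (84.0%) and aged ENR replicate 2 (82.0%). At Tex14, aged STD replicate 1 and aged ENR replicate 1 had the same level (48.1% each), and at Dazl aged ENR replicate 5 was low (43.5%). The plain mean of this mouse at Dazl was 54.5%, above the aged ENR median of 47.3%, so that it was low only on the coverage-adjusted level. Gene bodies with a low mouse were Tex14 (aged STD replicate 5, 30.2%), Sycp1 (aged STD replicate 5, 84.3%), Tdrd5 (aged ENR replicate 3, 69.2%), Piwil4 (young STD replicate 4, 67.4%) and Tdrd9 (young STD replicate 1, 70.3%).

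High mice in little methylated promoters were aged STD replicate 6 (24.8%) and aged ENR replicate 2 (59.2%) at Piwil4, aged STD replicate 6 (9.75%) at Smc1b, aged ENR replicate 6 (15.3%) at Tdrd5 and young STD replicate 8 (29.8%) at Tdrd6. At Piwil4, the other aged ENR mice lay between 1.298% and 7.34%. 3 of the 21 cases were aged STD replicate 5, the library that stood apart over the whole table. The part of read depth in these values was not tested.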

How the results depend on the processing

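The number of germ cell genes called stayed at 0 in every comparison under all 35 promoter settings and 33 gene body settings tried, with a lowest adjusted p of 0.656 (limma, gene bodies, age). For single CpGs, a difference over 25 points alone gave 52 of 527 for age, 48 for enrichment and 47 for aged ENR against young STD, where the call with an adjusted p gave 0. Levels moved with coverage: with CpGs read in at least 5 mice per group, 2 of 7 promoters and 6 of 6 gene bodies were at 50% or more in young STD mice, and with at least 10 CpGs in a gene 10 of 10 gene bodies were, where fewer genes entered by construction. Leaving out each mouse in turn gave 12 to 13 promoters and 15 to 16 gene bodies. With 75% in place of 50%, 3 of 7 promoters with a CpG ratio under 0.4 were at or over the limit. By the exact permutation test the Tdrd5 gene body passed 0.05 for age (p = 0.0252) and the Tex14 promoter for aged ENR against young STD (p = 0.0218), and no other gene passed by that test as measured. By limma's adjusted p no gene passed in any setting. At an unadjusted p under 0.05 (limma) there were 0 to 3 genes per comparison over the settings. Of the other values, 5 moved by more than the spread between mice, at Tex14, Spo11, Nanos3 and Piwil2. The Piwil2 gene body difference for age, 18.2 points, ran from −4.56 to 26.8 points over the settings. At the Spo11 promoter, aged ENR against young STD, −0.34 points ran from −13.1 to 1.92. The Tex14 promoter difference for enrichment, −2.65 points, ran from −14.0 to 1.56.

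Mice with the same replicate number were not treated as paired. The correlation of their deviations had a median of −0.0064 over 24 pairs (−0.040 to 0.021, 8628 CpGs). Pairs with other numbers had a median of 0.0026 (168 pairs). Such correlations cannot show whether mice shared a cage or a batch. With a replicate block 0 germ cell genes were called in each comparison. Depth per value is unknown, which limits what a single CpG can show. Promoter standard errors for age ran up to 11.3 points, at Mov10l1, where the 95% confidence interval spanned −34.5 to 13.3 points. A difference well above its standard error could go uncalled, also at promoters near the median standard error of 3.65 points.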

Other observations

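Among the 18 further germ cell genes with a tested promoter, chosen here after their values were seen, the coverage-adjusted level of Henmt1, the methyltransferase that finishes piRNA ends, was 86.0% ± 14.2 (SD, n = 6) in young STD, 44.5% ± 37.5 (n = 5) in aged STD and 24.4% ± 24.4 (n = 4) in aged ENR mice. Hormad2, a protein of unpaired meiotic chromosome axes, was at 66.4% ± 20.3 (n = 3), 34.1% ± 15.2 (n = 6) and 42.3% ± 22.1 (n = 6). For age the differences were −41.5 points (95% confidence interval −74.4 to −8.71) at Henmt1 and −32.3 points (−60.1 to −4.51) at Hormad2, each with an adjusted p = 0.875 by limma. For enrichment they were −20.0 points (−56.4 to 16.3) and 8.19 points (−14.5 to 30.9). In aged ENR against young STD mice Henmt1 differed by −61.6 points (−96.6 to −26.6, limma adjusted p = 0.771). Neither was called in any comparison (limma, adjusted p under 0.05), and both were picked for the size of their age difference. For enrichment the largest difference of the list was at Meioc, −29.3 points (−50.3 to −8.33, limma adjusted p = 0.931). The median difference over the 18 promoters was −0.30 points for age, −1.05 for enrichment and −2.32 for aged ENR against young STD mice. Taf7l, an X-linked germ cell transcription factor subunit, was at 69.2%, 69.7% and 66.9%.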
